A study of Mus musculus with 9 samples.

Results

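Inorganic ion exchangers and cotransporters were followed in mouse tumour organoids in which Apc expression was given back. They are the genes of 9 solute carrier families that move sodium, protons, chloride, bicarbonate, sulphate, phosphate or calcium across membranes. The members were all count-table rows whose Ensembl ID carries, in GENCODE M21, a protein-coding symbol that begins with Slc4a, Slc8a, Slc9a, Slc12a, Slc13a, Slc20a, Slc24a, Slc26a or Slc34a. This gave 60 of 21253 genes. The prefix also takes 3 proteins that are not carriers, the PDZ scaffolds Slc9a3r1 and Slc9a3r2 and the nuclear protein Slc4a1ap, and they are described apart. All 9 samples are poly(A) RNA from AKP organoids, titled shAPC, grown by the method of an earlier Apc organoid study, and the labels give no alleles behind the name AKP. The 3 groups are organoids kept on doxycycline (labelled Apc OFF, here Apc off), organoids 2 days after doxycycline was withdrawn and organoids 7 days after it was withdrawn, with 3 samples in each. The labels call the 3 samples of a group technical replicates and name no animal or clone, so p-values here measure only the spread between these samples. Length of time without doxycycline, Apc restoration and the start of the culture cannot be told apart. Apc itself had 6.8 to 8.84 CPM with Apc off, 24.8 to 38.1 CPM at 2 days and 67.9 to 92.9 CPM at 7 days.

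In the intestinal epithelium, sodium chloride is absorbed mainly by apical Na+/H+ exchangers working beside apical Cl-/HCO3- exchangers of the Slc26 family. Chloride secretion runs the other way: the basolateral Na+-K+-2Cl- cotransporter loads chloride into the cell, an apical channel lets it out, and Na+-HCO3- carriers can load bicarbonate for the same purpose. The Na,K-ATPase sets the sodium gradient that drives most of these carriers, and separate sodium-coupled carriers take up sulphate and phosphate.

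Read counts were scaled to CPM, counts per TMM-normalised library of fixed size, and values are CPM, given per sample or as mean ± SD with n = 3, unless another scale is named. Totals were 24143589 to 32277040 counts a sample. Of the 60 members, 37 passed the filter on low counts and 23 did not. The highest count of any of those 23 in any sample was 15, and Slc13a3, a sodium-dicarboxylate cotransporter, had 0 counts in all 9 samples. Without the 7-day samples 30 of the members would have passed: Slc13a1, Slc13a2, Slc34a2, Slc4a3, Slc4a5, Slc8a3 and Slc9a9 would not, so a difference in those that passed through their 7-day level was built into the filter. Members together, the 3 non-carrier proteins included, took 0.1135 to 0.1174% of all counts with Apc off, 0.1175 to 0.1269% at 2 days and 0.2147 to 0.2183% at 7 days. Much of this was the scaffold Slc9a3r1. Its group mean was 361 CPM with Apc off, 392 CPM at 2 days and 1070 CPM at 7 days. The means of all 60 members summed to 1060 CPM with Apc off, 1100 CPM at 2 days and 2620 CPM at 7 days. Epithelial markers (Epcam, Cdh1, keratins and others, 8 of 8 detected) summed to 9710 to 12800 CPM with Apc off, 14400 to 16400 CPM at 2 days and 26700 to 36400 CPM at 7 days. Enterocyte markers (Alpi, Apoa4, Sis and Krt20, 4 of 4 detected) summed to 4.19 to 6.25 CPM with Apc off, 30.7 to 32 CPM at 2 days and 5490 to 5780 CPM at 7 days. Goblet cell markers (Tff3, Clca1 and Zg16, 3 of 3 detected) summed to 12.9 to 14.8 CPM with Apc off, 76.6 to 95.5 CPM at 2 days and 1240 to 1460 CPM at 7 days. The crypt and Wnt target markers Lgr5 and Axin2 ran the other way, summing to 78.1 to 91.4 CPM with Apc off, 7.04 to 7.09 CPM at 2 days and 1.35 to 1.72 CPM at 7 days. The enteroendocrine marker Chga had at most 0.173 CPM in any sample. The part of these markers in the results below was not tested, and in bulk RNA fewer cells of a type and less RNA per cell cannot be told apart. Fibroblast, leukocyte, endothelial and neural marker lists each summed to at most 2.04 CPM in any sample, with Lum and Elavl4 at 0 in all of them. The leukocyte list moved with time, at 0.115 to 0.232 CPM with Apc off, 0.215 to 0.49 CPM at 2 days and 1.13 to 1.43 CPM at 7 days, mostly through Csf1r.

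Start-site sequences are shown for 3 members with unlike time courses: the apical anion exchangers Slc26a3 and Slc26a6, which differed most from the controls among Slc26 carriers, and the apical Na+/H+ exchanger Slc9a3, which was called lower at 2 days and not at 7 days. Each is the RefSeq window on GRCm38.p6 from 250 bases before to 50 bases after a start site, on the + strand of the genome, and capitals mark CpG dinucleotides. The table held a window for 46 of the 60 members. The Slc26a3 window is at chr12:31437969-31438268, that of Slc26a6 at chr9:108853793-108854092 and that of Slc9a3 at chr13:74121163-74121462. GENCODE M21 also has Slc26a3 transcripts that start upstream of this window.
Slc26a3: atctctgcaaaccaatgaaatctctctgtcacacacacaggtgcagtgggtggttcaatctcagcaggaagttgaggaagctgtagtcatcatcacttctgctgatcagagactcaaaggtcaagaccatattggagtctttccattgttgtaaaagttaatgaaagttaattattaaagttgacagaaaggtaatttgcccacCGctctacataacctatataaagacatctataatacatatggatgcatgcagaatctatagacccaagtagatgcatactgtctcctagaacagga
Slc26a6: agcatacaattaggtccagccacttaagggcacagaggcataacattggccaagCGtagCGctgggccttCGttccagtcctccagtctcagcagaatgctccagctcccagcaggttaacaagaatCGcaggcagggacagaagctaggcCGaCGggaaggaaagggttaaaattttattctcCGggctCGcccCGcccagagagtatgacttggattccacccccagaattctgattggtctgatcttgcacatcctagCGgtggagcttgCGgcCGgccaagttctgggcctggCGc
Slc9a3: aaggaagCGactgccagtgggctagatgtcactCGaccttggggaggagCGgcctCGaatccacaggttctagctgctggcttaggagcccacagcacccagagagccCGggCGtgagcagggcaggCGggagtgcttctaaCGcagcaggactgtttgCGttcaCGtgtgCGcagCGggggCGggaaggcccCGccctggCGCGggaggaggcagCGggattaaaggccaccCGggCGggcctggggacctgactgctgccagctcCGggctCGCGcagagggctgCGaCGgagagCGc
The Slc26a3 window held 1 CpG and 39.3% G and C, that of Slc26a6 held 13 CpG and that of Slc9a3 held 25 CpG, against a median of 7 CpG over all 32851 windows. The motifs of 3 factors were searched on both strands in all windows. The TCF/LEF letters CTTTGAT or CTTTGAA were in 8.65% of all windows and in those of 2 members, Slc12a3 and Slc12a8. The CDX2 letters TTTATGG or TTTATTG were in 7.2% of all windows and in those of 4 members, Slc12a8, Slc13a5, Slc26a4 and Slc8a2, and the HNF4 letters CAAAGTCCA were in 0.475% of all windows and in none of the members' windows. After the Slc26a3 window had been read, the letters of an HNF1 site (GTTAAT, any 1 base, ATTAA) were searched as well: they were in 20 of 32851 windows, 0.0609%, and among members only in that of Slc26a3, where their first base lies 84 bases before the start site.
Slc26a3 around these letters, in capitals: ttaatgaaaGTTAATTATTAAagttgacag
These are matches of letters and no evidence of binding.

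At 2 days, the first comparison asks which carriers had already changed while Apc had only recently returned. In edgeR's quasi-likelihood test at an adjusted p under 0.05, 9 of the 37 tested members were higher than with Apc off, against 13.1% of all 12535 genes tested, and 2 were lower, against 10.6% of all genes. The 9 were Slc26a2, Slc26a3, Slc26a10, Slc4a4, Slc4a11, Slc9a2, Slc9a4, Slc12a7 and Slc13a1, and the 2 were Slc9a3 and Slc20a2. The median log2 fold change was 0.0739 over the 37 members and -0.00393 over all genes. A change of 4-fold or more was called for Slc26a3 and Slc13a1 upward, against 0.925% of all genes, and for Slc9a3 downward, against 0.495% of all genes. For Slc13a1 this rests on a fitted log2 fold change of 4.93, from 12 counts at 2 days against 0 in the controls. With the controls set at 3 counts its change was at least 3.78-fold, so 4-fold is not assured. With only the 2 groups compared it did not pass the filter.

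At 7 days, the second comparison, 24 of the 37 members were higher than with Apc off, against 40.5% of all genes tested, and 8 were lower, against 41.8%. In either direction 32 of the 37 were called, against 82.3% of all genes, a share near the background. The median log2 fold change was 0.879 over the members and -0.0324 over all genes. At 4-fold or more, 15 members were higher, against 11% of all genes, and 1, Slc9a5, was lower, against 4.35%. Among the 15 were Slc13a1, Slc13a2, Slc34a2, Slc4a3, Slc4a5 and Slc8a3, which passed the filter only with the 7-day samples. Their difference was built into the filter, so the 15 cannot be read as a plain excess over 11%. These members are also among the 24 and in the median of 0.879, which have the same limit against 40.5% and -0.0324. Between 7 and 2 days, 26 members were higher at 7 days, against 39.2% of all genes, and 7 were lower, against 39.9%, which makes 33 in either direction, against 79.1%. At 4-fold or more 14 were higher at 7 days than at 2 days, against 8.72% of all genes, and none was lower, against 2.35%. The 14 and the 26 also held Slc13a1, Slc13a2, Slc34a2, Slc4a3, Slc4a5 and Slc8a3, with the same limit. Scaling by library size alone moved the median log2 fold change of all genes to -0.435 at 7 days against Apc off and to -0.444 at 7 days against 2 days. Members then split into 20 higher and 10 lower in both comparisons. Of all 12535 genes, 3675 were then higher and 6876 lower at 7 days against Apc off. At 7 days against 2 days they were 3281 and 7041. Changes under about the size of these median shifts thus depend on the scaling. Of the 37, 8 were higher in all 3 comparisons and 16 were higher at 7 days against each of the other groups without being called at 2 days. All genes were not counted by these patterns, so the 8 and the 16 have no background to be set against. The 8 held Slc13a1 and the 16 held Slc13a2, Slc34a2, Slc4a3, Slc4a5 and Slc8a3, with the limit of the filter given above.

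**Figure D1:**
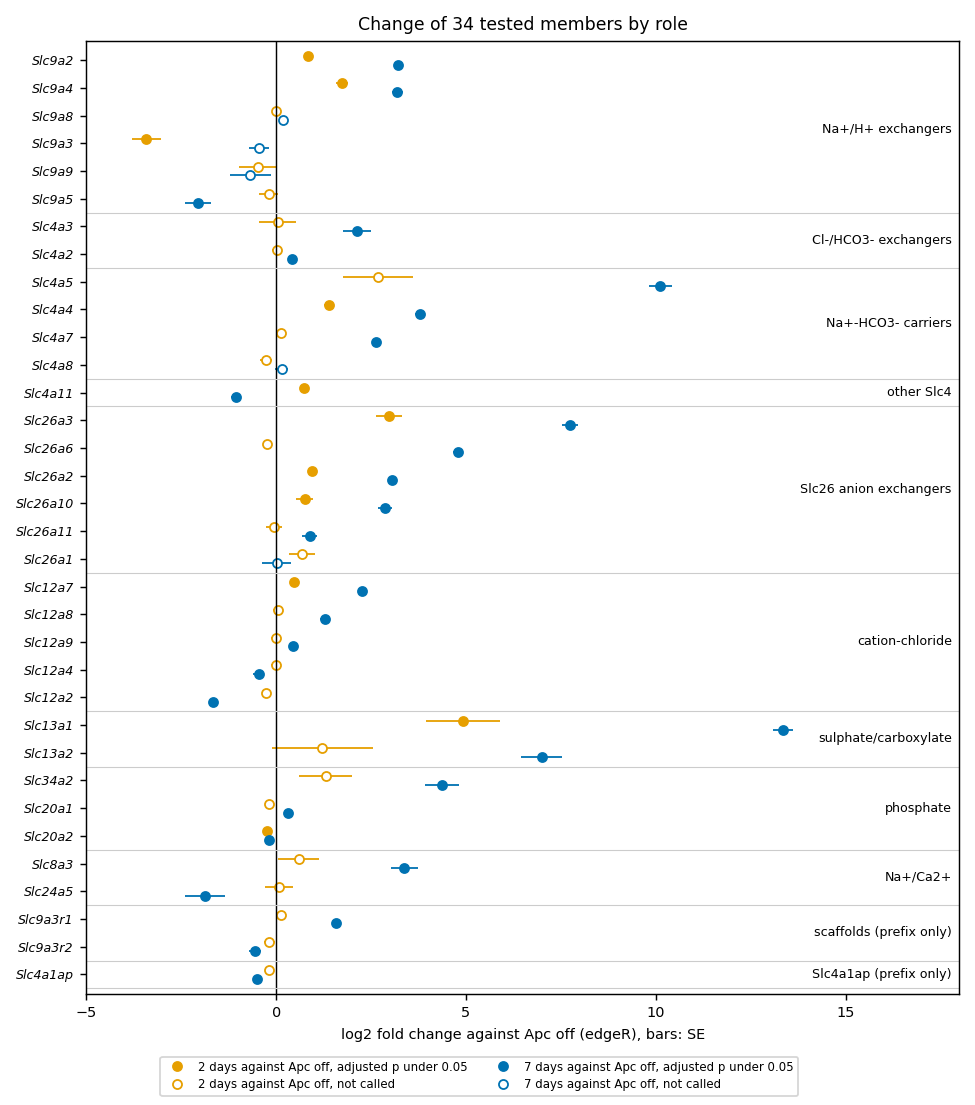
Log2 fold change against Apc off (x axis) for 34 of the 37 tested members grouped by role (y axis), at 2 days (orange) and 7 days (blue), bars showing the SE and filled points an edgeR adjusted p under 0.05. At 7 days 21 of the members drawn lie to the right and 8 to the left as called, against 40.5% and 41.8% of all genes. Among the 21, Slc13a1, Slc13a2, Slc34a2, Slc4a3, Slc4a5 and Slc8a3 passed the filter only with the 7-day samples. The values of Slc13a1 and Slc4a5 are fitted against 0 counts and 1 count with Apc off and depend on the fit.

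Slc26 anion exchangers held the carrier with the highest level per kilobase at 7 days, Slc26a6. Of 11 family members 6 were tested, and 5 were higher at 7 days than with Apc off, against 40.5% of all genes. At 2 days 3 of them were already higher, against 13.1% of all genes. Slc26a6 (chr9:108853283-108913049, GRCm38), an apical exchanger of chloride, bicarbonate and oxalate, had 8.3, 6.86 and 7.28 CPM with Apc off, 6.52, 6.19 and 6.38 CPM after 2 days, and 227, 208 and 179 CPM after 7 days. Every 7-day sample was far above the other 6, and the 2-day samples lay just under the controls. It was 27.3-fold higher at 7 days than with Apc off (log2 4.78 ± 0.11 SE, edgeR adjusted p = 8.03e-15) and not called at 2 days (log2 -0.23 ± 0.12 SE, edgeR adjusted p = 0.184).

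Slc26a3 (chr12:31390871-31473917), the apical Cl-/HCO3- exchanger whose loss causes congenital chloride diarrhoea in humans, had 0.0772, 0.316 and 0.142 CPM with Apc off, 1.44, 1.73 and 1.44 CPM after 2 days, and 42, 35.8 and 47.2 CPM after 7 days. The 3 groups did not overlap. It was 8.62-fold higher at 2 days than with Apc off (log2 2.98 ± 0.34 SE, edgeR adjusted p = 9.41e-06). At 7 days it was 234-fold higher than with Apc off (log2 7.74 ± 0.22 SE, edgeR adjusted p = 8.29e-14), a ratio that rests on 17 counts over the 3 controls. Without Apc off replicate 2, the highest control, the log2 fold change was 3.73 at 2 days and 8.49 at 7 days (edgeR adjusted p = 9.54e-06 and 6.35e-13). Slc26a3 and Slc26a6 are both known as apical chloride exchangers, and their time courses here differ in that Slc26a3 was called at 2 days and Slc26a6 was not. That difference between the genes at 2 days was not tested.

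Slc26a2, a sulphate transporter needed for proteoglycan sulphation, had 29.2, 27.5 and 30.9 CPM with Apc off, 54.5, 58.9 and 56 CPM after 2 days, and 217, 233 and 269 CPM after 7 days. Each group lay clear of the other 2. It was 1.93-fold higher at 2 days (edgeR adjusted p = 1.53e-06) and 8.21-fold higher at 7 days than with Apc off (log2 3.04 ± 0.09 SE, edgeR adjusted p = 2.14e-13). Slc26a11, a sulphate transporter of this family, averaged 2.34 ± 0.616 CPM with Apc off, 2.25 ± 0.41 CPM at 2 days and 4.3 ± 0.714 CPM at 7 days, and was called higher at 7 days (log2 0.88 ± 0.2 SE, edgeR adjusted p = 0.000702). Slc26a1, a sulphate and oxalate exchanger known from liver and kidney, averaged 0.272 ± 0.0718 CPM with Apc off, 0.44 ± 0.125 CPM at 2 days and 0.27 ± 0.0466 CPM at 7 days, and was not called in any comparison with all 9 samples and TMM scaling. At 7 days against 2 days it was called lower without 2-day replicate 3 (log2 -0.88, edgeR adjusted p = 0.0367), with upper-quartile factors (log2 -0.79, adjusted p = 0.0477) and with library size alone (log2 -1.08, adjusted p = 0.0107).

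Slc26a10 had 1.08, 0.775 and 0.887 CPM with Apc off, 1.5, 1.35 and 1.69 CPM after 2 days, and 7.96, 5.86 and 6.19 CPM after 7 days. The 7-day samples stood apart from the other 6, while the 2-day and control samples were separated by a narrow margin. It was 7.29-fold higher at 7 days than with Apc off (log2 2.87 ± 0.18 SE, edgeR adjusted p = 8.9e-10) and 1.65-fold higher at 2 days (edgeR adjusted p = 0.0214). The 2-day call was lost when Apc off replicate 2, 2-day replicate 1 or 2-day replicate 3 was left out (edgeR adjusted p = 0.114, 0.0537 and 0.083). Of its exon bases, 17.8% overlap those of B4galnt1 on the other strand, and the library kit does not mark strand. B4galnt1 averaged 46.5 ± 5.06 CPM with Apc off, 80.2 ± 3.92 CPM at 2 days and 294 ± 28.6 CPM at 7 days, and reads of the pair cannot be told apart where they overlap.

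**Figure D2:**
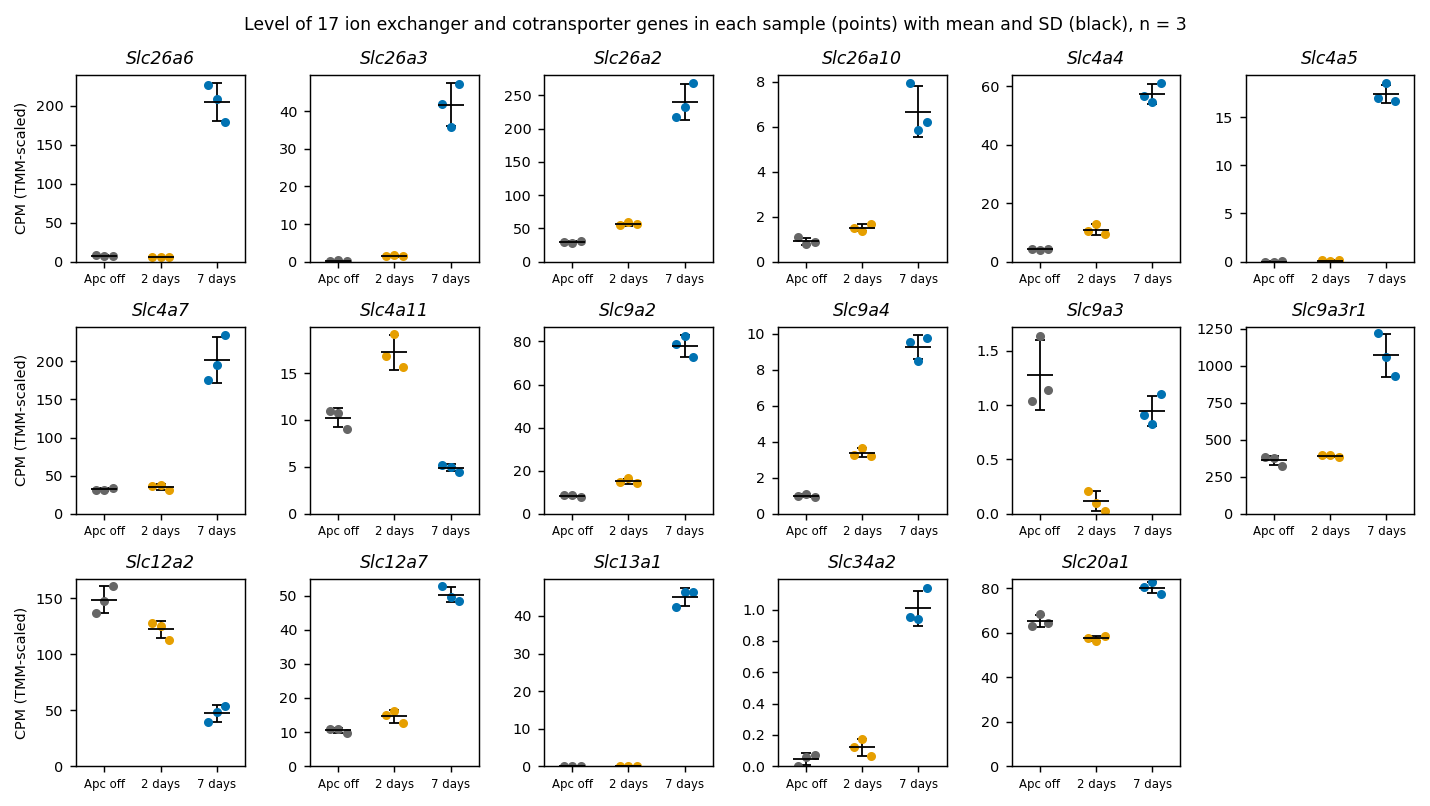
CPM in each sample (y axis, linear, from 0) for 17 members by group (x axis, Apc off, 2 days, 7 days), points being samples and black bars the mean and SD, n = 3. Slc26a6, Slc4a7, Slc4a5, Slc13a1 and Slc34a2 stand high only at 7 days, Slc4a11 is highest at 2 days, and Slc9a3 is lowest at 2 days.

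Genes were compared with each other per kilobase of exon. The length is the union of all annotated exons of a gene, not that of the transcripts expressed. Shares and orders between genes depend on that length. On this scale the summed level of the Slc26 family was 4.78 CPM per kb with Apc off, 7.12 at 2 days and 66.6 at 7 days. Slc26a6 made up 28.9% of it with Apc off, 16.5% at 2 days and 56.6% at 7 days, in means of 3 samples. Slc26a2 made up 49.4% with Apc off, 64.1% at 2 days and 29.1% at 7 days. The leading Slc26 gene was thus Slc26a2 with Apc off and at 2 days and Slc26a6 at 7 days.

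Bicarbonate carriers of the Slc4 family were the second group with large changes. Of 5 Na+-coupled bicarbonate carriers 4 were tested, and 3 were higher at 7 days than with Apc off, against 40.5% of all genes. Slc4a5, among the 3, passed the filter only with the 7-day samples, so its difference was built into the filter. Slc4a4 (chr5:88886818-89239653), the electrogenic carrier of the basolateral membrane, had 4.17, 4.05 and 4.3 CPM with Apc off, 10.5, 13 and 9.3 CPM after 2 days, and 56.7, 54.6 and 61.2 CPM after 7 days. No sample of one group reached the level of another. It was 2.62-fold higher at 2 days (log2 1.39 ± 0.13 SE, edgeR adjusted p = 1.04e-06) and 13.8-fold higher at 7 days than with Apc off (log2 3.79 ± 0.12 SE, edgeR adjusted p = 3.85e-13).

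Slc4a7 (chr14:14702279-14799940), the electroneutral Na+-HCO3- carrier, had 31.1, 31.6 and 34.5 CPM with Apc off, 36, 38.3 and 31.1 CPM after 2 days, and 175, 195 and 235 CPM after 7 days. The 2-day samples overlapped the controls, and all 7-day samples were higher. It was 6.23-fold higher at 7 days than with Apc off (log2 2.64 ± 0.11 SE, edgeR adjusted p = 8.82e-12) and not called at 2 days (log2 0.12 ± 0.11 SE, edgeR adjusted p = 0.492).

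Slc4a5 (chr6:83219828-83304945), a second electrogenic carrier, had 0, 0 and 1 counts with Apc off, 4, 1 and 4 counts at 2 days and 392, 492 and 456 counts at 7 days, the last being 17.4 ± 0.953 CPM. It was close to undetected until 7 days. At 2 days it just missed the threshold against Apc off (log2 2.68 ± 0.93 SE, edgeR adjusted p = 0.0502). It was called higher at 2 days by limma-voom (adjusted p = 0.0226). In edgeR it was called with upper-quartile factors (adjusted p = 0.0487), without the filter (0.0496), and without Apc off replicate 3 or 2-day replicate 2 (0.0262 and 0.0282). Against the single control count the ratio at 7 days was 1550, with an exact 95% counting interval of 277 to 61100, which covers counting error only (edgeR adjusted p = 1.59e-13). Against the 2-day samples it was 186-fold higher (edgeR adjusted p = 3.16e-13). Slc4a8, the Na+-driven Cl-/HCO3- exchanger, averaged 2.47 ± 0.403 CPM with Apc off, 2.08 ± 0.208 CPM at 2 days and 2.75 ± 0.13 CPM at 7 days. It was called only between 7 and 2 days (log2 0.41 ± 0.16 SE, edgeR adjusted p = 0.0314). Leaving out 1 of 4 samples ended that call, with edgeR adjusted p = 0.0863 and 0.0946 without 2-day replicates 1 and 3, and 0.0895 and 0.0503 without 7-day replicates 2 and 3.

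Slc4a2, the basolateral Cl-/HCO3- exchanger, was the leading Slc4 gene per kilobase by group mean in all groups, although at 7 days its samples (15.2 to 19.9 CPM per kb) overlapped those of Slc4a7 (11.5 to 15.5). It averaged 110 ± 11.5 CPM with Apc off, 111 ± 13.1 CPM at 2 days and 146 ± 19.6 CPM at 7 days, a 1.34-fold higher level at 7 days than with Apc off (log2 0.42 ± 0.11 SE, edgeR adjusted p = 0.00296). With library size alone its log2 fold change was 0.01 (edgeR adjusted p = 0.9). Its share of the family's summed level was 73.2% with Apc off, 65.5% at 2 days and 43.4% at 7 days, while that of Slc4a7 was 12% with Apc off, 11.4% at 2 days and 32.7% at 7 days. Of the exon bases of Slc4a2, 13.7% overlap Fastk on the other strand, which averaged 46.9 ± 3.24 CPM with Apc off, 48 ± 1.46 CPM at 2 days and 46.5 ± 1.83 CPM at 7 days. Slc4a3, a related Cl-/HCO3- exchanger best known from heart and brain, had 11 counts over the controls, 12 over the 2-day samples and 43 over the 7-day samples, and was called higher at 7 days (log2 2.13 ± 0.37 SE, edgeR adjusted p = 7.11e-05).

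Slc4a11 (chr2:130684113-130697519), which is thought to carry protons rather than bicarbonate, was the only member called in opposite directions at the 2 times. It had 11, 10.7 and 9.09 CPM with Apc off, 16.8, 19.2 and 15.6 CPM after 2 days, and 5.23, 5.03 and 4.47 CPM after 7 days. All 2-day samples were above all controls, and all 7-day samples were below them. It was 1.67-fold higher at 2 days (log2 0.74 ± 0.11 SE, edgeR adjusted p = 0.000143) and 2.09-fold lower at 7 days than with Apc off (log2 -1.07 ± 0.12 SE, edgeR adjusted p = 1.03e-06). Between the 2 times it was 3.5-fold lower at 7 days than at 2 days (log2 -1.81 ± 0.12 SE, edgeR adjusted p = 2.02e-09).

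**Figure D3:**
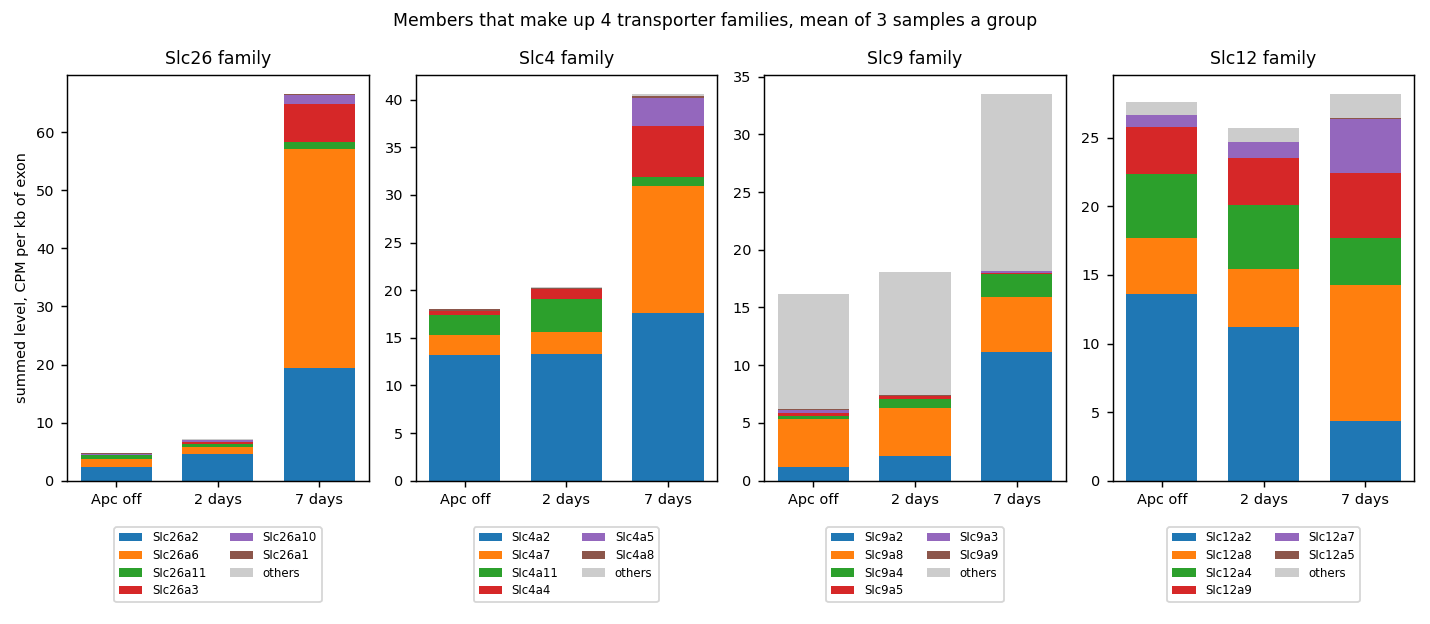
Mean CPM per kilobase of exon (y axis, linear, from 0, a scale of its own in each panel) summed over the members of 4 families, by group (x axis, Apc off, 2 days, 7 days) and member (colours, with grey for the other members), n = 3. The Slc26 sum is 4.78 with Apc off, 7.12 at 2 days and 66.6 at 7 days, while the Slc12 sum is 27.6 with Apc off, 25.7 at 2 days and 28.2 at 7 days.

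Na+/H+ exchangers of the Slc9 family did not move as 1 group. Of 9 exchangers 8 were tested: at 7 days 4 were higher, 1 was lower and 3 were not called against Apc off. Of all genes 40.5% were higher and 41.8% lower. Slc9a2 (chr1:40680574-40769273), an apical exchanger, had 8.65, 8.69 and 7.84 CPM with Apc off, 14.6, 16.5 and 14.5 CPM after 2 days, and 78.6, 82.7 and 72.6 CPM after 7 days. Each group lay above the one before it without overlap. It was 1.81-fold higher at 2 days (edgeR adjusted p = 8.32e-06) and 9.29-fold higher at 7 days than with Apc off (log2 3.21 ± 0.09 SE, edgeR adjusted p = 1.18e-13). Slc9a4 (chr1:40580081-40630725), an exchanger known from gastric parietal cells, lies 49849 bases from Slc9a2 on the same strand. It had 1, 1.09 and 0.923 CPM with Apc off, 3.28, 3.67 and 3.22 CPM after 2 days, and 9.56, 8.49 and 9.75 CPM after 7 days. Of its exon bases, 16.7% overlap the opposite-strand Gm37435, not analysed here. Slc9a4 also rose at both times, 3.37-fold at 2 days (edgeR adjusted p = 9.34e-07) and 9.21-fold at 7 days against Apc off (log2 3.19 ± 0.14 SE, edgeR adjusted p = 1.66e-11).

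Slc9a3 (chr13:74121457-74169442), the main absorptive exchanger of the brush border, went the other way at 2 days. It had 27, 57 and 32 counts with Apc off (1.04, 1.64 and 1.14 CPM), 7, 3 and 1 counts at 2 days (0.214, 0.104 and 0.0307 CPM) and 21, 22 and 30 counts at 7 days (0.908, 0.826 and 1.1 CPM). All 2-day samples were below all other samples, and the 7-day samples overlapped the controls. It was 10.9-fold lower at 2 days than with Apc off (log2 -3.42 ± 0.39 SE, edgeR adjusted p = 1.11e-05) and 8.13-fold higher at 7 days than at 2 days (log2 2.97 ± 0.43 SE, edgeR adjusted p = 1.19e-05). Without 2-day replicate 1, the highest of the 2-day samples, these log2 fold changes were -4.22 and 3.78 (edgeR adjusted p = 2.31e-05 and 1.31e-05). At 7 days it was not called against Apc off (log2 -0.45 ± 0.27 SE, edgeR adjusted p = 0.131), but was called lower with library size alone (log2 -0.84, edgeR adjusted p = 0.0117). Per kilobase it stayed far under Slc9a2: 0.172 CPM per kb for Slc9a3 and 11.2 for Slc9a2 at 7 days.

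Slc9a5, known mostly from brain, had 140 counts over the controls, 130 over the 2-day samples and 29 over the 7-day samples and was 4.27-fold lower at 7 days than with Apc off (log2 -2.06 ± 0.34 SE, edgeR adjusted p = 4.32e-05). The Golgi exchanger Slc9a8 averaged 38 ± 1.6 CPM with Apc off, 38 ± 3.24 CPM at 2 days and 43.1 ± 3.17 CPM at 7 days and was not called (log2 0.18 at 7 days, edgeR adjusted p = 0.0695). Its call depended on the scaling, being lower with library size alone (log2 -0.23, edgeR adjusted p = 0.0163) and higher with DESeq2 size factors in edgeR (log2 0.22, adjusted p = 0.0308). The endosomal Slc9a9 had 28 counts over the controls, 21 over the 2-day samples and 15 over the 7-day samples and was not called. The share of Slc9a2 in the family's summed level per kilobase was 7.4% with Apc off, 12% at 2 days and 33.3% at 7 days.

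Members of the Slc12 family of cation-chloride cotransporters split by direction. They were grouped by family name, which does not show what each one carries, Slc12a8 and Slc12a9 included. Of 9 members 6 were tested, with 4 higher and 2 lower at 7 days than with Apc off. All genes split into 40.5% higher and 41.8% lower. Slc12a2, the Na+-K+-2Cl- cotransporter that loads chloride for secretion, had 137, 147 and 161 CPM with Apc off, 128, 125 and 113 CPM after 2 days, and 39, 48.6 and 53.5 CPM after 7 days. The 7-day samples were all below the rest, and the 2-day samples all lay below the controls by a smaller step. It was 3.16-fold lower at 7 days than with Apc off (log2 -1.66 ± 0.11 SE, edgeR adjusted p = 1.06e-09) and missed the threshold at 2 days (log2 -0.28 ± 0.1 SE, edgeR adjusted p = 0.0636). It was called lower at 2 days by DESeq2 (adjusted p = 0.0456), and by edgeR with only the 2 groups compared (adjusted p = 0.0239), without the filter (0.0234) and without 7-day replicate 1 or 3 (0.0185 and 0.0306).

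Slc12a7 (chr13:73733094-73816754), a K+-Cl- cotransporter, had 10.8, 11 and 9.66 CPM with Apc off, 14.9, 16.3 and 12.6 CPM after 2 days, and 52.8, 49.7 and 48.6 CPM after 7 days. The groups did not overlap. It was 1.39-fold higher at 2 days (edgeR adjusted p = 0.00402) and 4.8-fold higher at 7 days than with Apc off (log2 2.26 ± 0.1 SE, edgeR adjusted p = 1.93e-11). Another K+-Cl- cotransporter, Slc12a4, averaged 20.3 ± 3.15 CPM with Apc off, 20.2 ± 2.8 CPM at 2 days and 14.7 ± 1.99 CPM at 7 days (1.37-fold lower at 7 days, edgeR adjusted p = 0.00578). Slc12a8 averaged 18.1 ± 2.43 CPM with Apc off, 18.6 ± 0.641 CPM at 2 days and 44.3 ± 8.69 CPM at 7 days (2.45-fold at 7 days, edgeR adjusted p = 2.19e-07). Slc12a9 averaged 17.3 ± 3.21 CPM with Apc off, 17.1 ± 1.15 CPM at 2 days and 23.6 ± 0.585 CPM at 7 days (1.37-fold, edgeR adjusted p = 0.00246, and 0.684 with library size alone). The family's summed level per kilobase was 27.6 CPM per kb with Apc off, 25.7 at 2 days and 28.2 at 7 days. Within it the share of Slc12a2 was 49.3% with Apc off, 43.7% at 2 days and 15.4% at 7 days, and that of Slc12a8 was 14.7% with Apc off, 16.3% at 2 days and 35.2% at 7 days.

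Sulphate and phosphate carriers gave the widest range of sizes. Slc13a1 (chr6:24088283-24168092), the apical sodium-sulphate cotransporter, had 0 counts in the 3 controls, 4 counts in each 2-day sample and 980, 1238 and 1270 counts at 7 days, the last being 45.1 ± 2.38 CPM. The groups were fully apart. Setting the controls at 3 counts over the group, the level was at least 3.78-fold higher at 2 days (edgeR adjusted p = 0.00227), and against the 2-day samples it was 353-fold higher at 7 days (edgeR adjusted p = 5.78e-14). Slc13a2, the sodium-dicarboxylate cotransporter, had 1 count over the controls, 3 over the 2-day samples and 152 over the 7-day samples, a ratio to the controls of 175 with an exact 95% counting interval of 31 to 6980 (edgeR adjusted p = 1.05e-08). The antisense gene Slc13a2os, not analysed here, overlaps 26.2% of its exon bases, and without strand the reads cannot be told apart.

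Slc34a2 (chr5:53038081-53071664), the apical sodium-phosphate cotransporter of the small intestine, had 0, 2 and 2 counts with Apc off, 4, 5 and 2 counts at 2 days and 22, 25 and 31 counts at 7 days, the last being 1.01 ± 0.11 CPM. The 7-day samples were above the other 6, which overlapped. It was 23.6-fold higher at 7 days than with Apc off (log2 4.37 ± 0.45 SE, edgeR adjusted p = 2.83e-07), on few counts. Slc20a1 (chr2:129198764-129211616), the phosphate carrier of most cells, had 63.1, 68.4 and 64.5 CPM with Apc off, 57.5, 56.4 and 58.4 CPM after 2 days, and 80.6, 82.6 and 77.5 CPM after 7 days. The 3 groups did not overlap, with 2 days lowest. Its 1.23-fold higher level at 7 days against Apc off (log2 0.3 ± 0.07 SE, edgeR adjusted p = 0.00114) turned to a log2 fold change of -0.11 with library size alone (edgeR adjusted p = 0.164). The related Slc20a2 averaged 60.2 ± 0.935 CPM with Apc off, 51.1 ± 3.43 CPM at 2 days and 52.5 ± 4.4 CPM at 7 days, and was called lower by a small margin at 2 days (1.18-fold, edgeR adjusted p = 0.0485) and at 7 days (1.15-fold, edgeR adjusted p = 0.0364). The 2-day call was lost without any 1 of 6 samples (edgeR adjusted p = 0.0728 to 0.185) and the 7-day call without any 1 of 5 (0.0655 to 0.133).

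Na+/Ca2+ exchangers were scarce: 2 of 8 were tested. Slc8a3, a plasma membrane exchanger, had 8 counts over the controls, 13 over the 2-day samples and 75 over the 7-day samples and was 11.5-fold higher at 7 days than with Apc off (log2 3.38 ± 0.36 SE, edgeR adjusted p = 4.45e-07), or log2 4.03 without Apc off replicate 2 (edgeR adjusted p = 1.5e-06). Slc24a5, the potassium-dependent exchanger known from melanosomes, had 35 counts over the controls, 39 over the 2-day samples and 8 over the 7-day samples and was 3.93-fold lower at 7 days (log2 -1.88 ± 0.52 SE, edgeR adjusted p = 0.00385). Of its exon bases, 39.5% overlap Myef2 on the other strand, which averaged 63.3 ± 4.12 CPM with Apc off, 70 ± 3.59 CPM at 2 days and 22.7 ± 3.49 CPM at 7 days, so the source of those reads cannot be told apart.

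The 3 proteins taken by the prefix alone differed among themselves. Slc9a3r1 (chr11:115163341-115181181), the PDZ scaffold that ties brush-border carriers to ezrin, had 383, 377 and 324 CPM with Apc off, 396, 395 and 385 CPM after 2 days, and 1220, 1060 and 934 CPM after 7 days. The 7-day samples were well above the other 6. It was 2.97-fold higher at 7 days than with Apc off (log2 1.57 ± 0.1 SE, edgeR adjusted p = 1.31e-09) and not called at 2 days (edgeR adjusted p = 0.443). Slc9a3r2, a related scaffold, averaged 5.99 ± 1.16 CPM with Apc off, 5.27 ± 0.655 CPM at 2 days and 4.06 ± 0.316 CPM at 7 days and was 1.47-fold lower at 7 days (edgeR adjusted p = 0.00376). Slc4a1ap averaged 38.8 ± 0.292 CPM with Apc off, 33.9 ± 0.803 CPM at 2 days and 27.2 ± 0.998 CPM at 7 days and was 1.42-fold lower at 7 days (edgeR adjusted p = 1.21e-05).

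The order of levels per kilobase among the carriers, leaving those 3 proteins out, changed between the groups. At 7 days it ran from Slc26a6 (37.8 CPM per kb, samples 33 to 41.9) to Slc26a2 (19.4, samples 17.5 to 21.7), Slc4a2 (17.6, samples 15.2 to 19.9), Slc20a1 (14.4, samples 13.9 to 14.8) and Slc4a7 (13.3, samples 11.5 to 15.5). Slc26a6 was clear of the next gene, whereas Slc26a2 overlapped Slc4a2 and Slc20a1 overlapped Slc4a7. With Apc off the order was Slc12a2 (13.6 CPM per kb), Slc4a2 (13.2), Slc20a1 (11.7) and Slc20a2 (9.68), and each of the first 3 overlapped the next or the one before it.

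Below the filter, 12 of the 23 members had 1 to 10 counts over all samples and 10 had more than 10. Slc4a10, a Na+-coupled bicarbonate carrier, had 1 count over the controls, 2 over the 2-day samples and 32 over the 7-day samples. Slc4a9 had 6 counts with Apc off, 15 at 2 days and 30 at 7 days, and Slc12a3, the thiazide-sensitive Na+-Cl- cotransporter, had 0 with Apc off, 3 at 2 days and 15 at 7 days. Slc26a9, a chloride carrier, ran the other way with 22 counts with Apc off, 6 at 2 days and 3 at 7 days. These 4 were picked after their counts were seen.

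Genes that work with the carriers were described from 6 lists, and those given with values were picked after their values were seen. Some passed the filter only through their 7-day level, so their difference was built into it. Pdzd3 had 2 counts with Apc off, 10 at 2 days and 1809 at 7 days. Car4 had 1, 0 and 179 counts, and S100g had 5, 7 and 182. Counts of genes higher at 7 days in these lists cannot be read as a plain excess over 40.5%. Of 8 regulators and scaffolds of Slc9 and Slc26 carriers, all tested, 6 were higher and 1 was lower at 7 days than with Apc off, against 40.5% and 41.8% of all genes, and against 82.3% called in either direction. Chp2, the calcineurin B homologous cofactor of Na+/H+ exchangers, averaged 0.0718 ± 0.0436 CPM with Apc off, 1.03 ± 0.102 CPM at 2 days and 94.4 ± 15.7 CPM at 7 days (edgeR adjusted p = 6.14e-15 at 7 days), while its paralog Chp1 averaged 476 ± 16 CPM with Apc off, 285 ± 16 CPM at 2 days and 356 ± 24.9 CPM at 7 days. Pdzd3, a PDZ scaffold, averaged 0.0214 ± 0.0188 CPM with Apc off, 0.106 ± 0.0765 CPM at 2 days and 23.5 ± 2.2 CPM at 7 days (edgeR adjusted p = 1.41e-13 at 7 days). Pdzk1, a scaffold of the same family, had its lowest level at 2 days, as Slc9a3 did: 3.1 ± 0.414 CPM with Apc off, 0.882 ± 0.0493 CPM at 2 days and 5.78 ± 0.285 CPM at 7 days. Cftr, the apical chloride channel, averaged 44.6 ± 4.14 CPM with Apc off, 38.4 ± 4.47 CPM at 2 days and 51.3 ± 6.17 CPM at 7 days and was not called against Apc off at either time (edgeR adjusted p = 0.0956 at 7 days).

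Of 11 Na,K-ATPase genes 7 were tested, with 4 higher and 3 lower at 7 days, a split near that of all genes (40.5% higher and 41.8% lower). The beta subunit Atp1b1 averaged 115 ± 5.77 CPM with Apc off, 165 ± 7.14 CPM at 2 days and 751 ± 21.3 CPM at 7 days, whereas Atp1b3 averaged 159 ± 10.7 CPM with Apc off, 157 ± 10.6 CPM at 2 days and 81.3 ± 5.22 CPM at 7 days. Of 14 genes of the carbonic anhydrase family, whose active enzymes make the bicarbonate and protons that the carriers exchange, 8 were tested. At 7 days 7 of them were higher and 1 lower, against 40.5% and 41.8% of all genes. Car4, among the 7, passed the filter only through its 7-day level. Car9 averaged 8.31 ± 0.729 CPM with Apc off, 9.99 ± 0.709 CPM at 2 days and 87 ± 8.96 CPM at 7 days. Car12 was the lower one, with 46.5 ± 0.832 CPM with Apc off, 21.4 ± 1.8 CPM at 2 days and 8.21 ± 0.444 CPM at 7 days (edgeR adjusted p = 1.89e-12 at 7 days).

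Of 7 genes for the kinases that regulate Slc12 carriers and their adaptor Cab39, all tested, 2 were higher and 5 lower at 7 days. Of all genes 40.5% were higher and 41.8% lower, for comparison with this list and those below. Wnk4 averaged 9.57 ± 1.01 CPM with Apc off, 21.1 ± 2.39 CPM at 2 days and 45.3 ± 6.67 CPM at 7 days, while Stk39, which phosphorylates Slc12a2, averaged 128 ± 8.31 CPM with Apc off, 112 ± 2.17 CPM at 2 days and 87 ± 1.67 CPM at 7 days. Of 4 genes that use sulphate, 2 were higher at 7 days and none lower. Papss2, which makes the sulphate donor PAPS, averaged 12.2 ± 0.752 CPM with Apc off, 14.6 ± 0.662 CPM at 2 days and 232 ± 10.8 CPM at 7 days (edgeR adjusted p = 2.17e-15 at 7 days). Of 4 genes of the calcium route 3 were tested and all 3 were higher at 7 days, among them the calcium-binding protein S100g with 0.059 ± 0.0264 CPM with Apc off, 0.0728 ± 0.0331 CPM at 2 days and 2.35 ± 0.246 CPM at 7 days. S100g passed the filter only through its 7-day level, so its difference was built into the filter.

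**Figure D4:**
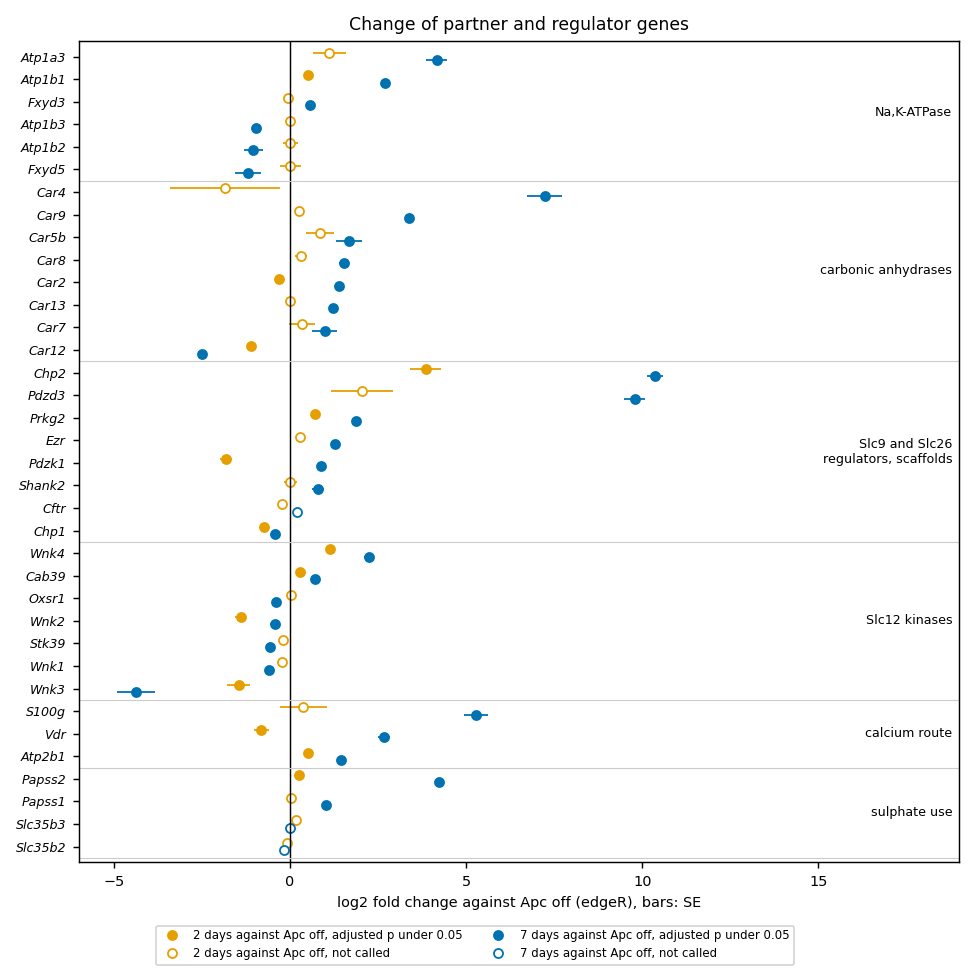
Log2 fold change against Apc off (x axis) for tested partner genes in 6 lists (y axis), at 2 days (orange) and 7 days (blue), bars showing the SE and filled points an edgeR adjusted p under 0.05. Of the 6 Na,K-ATPase genes drawn 3 lie to the right and 3 to the left at 7 days. Of the 8 tested carbonic anhydrases 7 lie to the right and 1 to the left. Car4, among the 7, passed the filter only through its 7-day level. Among all genes 40.5% were called higher and 41.8% lower at 7 days.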

How the data were processed

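RNA was measured in 9 samples, 3 per group, grouped by their titles. Per the labels' protocols the libraries were poly(A)-selected with a NEBNext Ultra II kit that does not mark strand. The authors deposited unnormalised read counts per gene in 1 table. Per the submitters' processing notes the tools were STAR 2.7.0e, featureCounts and DESeq2, with builds mm10 and GRCm38. The annotation and strand setting used are not given in the sources used. Of 21253 gene IDs, 21236 were in GENCODE M21, which gave symbols, coordinates and exon lengths.

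Counts were filtered with filterByExpr (12535 genes kept), scaled with TMM factors (between 1.073 and 1.125 with Apc off, 1.093 and 1.117 at 2 days, 0.785 and 0.8735 at 7 days), and then tested with edgeR 4.0.16 (R 4.3.3) by glmQLFit and glmQLFTest, two-sided, with all 9 samples and the group as the only term. P-values were Benjamini-Hochberg adjusted over all 12535 genes and called under 0.05. The SE is the absolute log2 fold change over the square root of F. Folds are ratios of mean CPM, and log2 fold changes are edgeR's fitted values, so the pair can differ slightly for low counts. The 7-day and 2-day comparisons share their control samples. Where a group had no count, a floor of 3 counts over its samples was used, and ratios against 1 to 3 counts carry exact 95% intervals, both for counting error only. Replicates differed beyond counting noise (chi-square over degrees of freedom 4.239 to 38.26). The script was checked on simulated counts.

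The members and lists were chosen with earlier results of these data known. Per-sample values are given for 17 members: those called with a log2 fold change of at least 2 and at least 5 CPM in the higher group, 8 with a known intestinal role, and any called in opposite directions at 2 and 7 days. The other tested members were given by group, whatever their change, apart from a few that are not reported here by name but stay in all counts and sums. Alternatives were DESeq2 1.42.0, limma-voom (limma 3.58.1), glmTreat, other scalings and filters, only the 2 groups compared, a replicate block and leaving out each sample. Motifs were matched to RefSeq start-site windows of GRCm38.p6. Protein sequences were not used here.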

Additional observations from a re-analysis of the deposited data

Results flagged for a closer look

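Effects at 2 and 7 days against the same controls differed, by the test of 7 days against 2 days itself, in 8 members whose effects had opposite signs at the 2 times or, for Slc9a3, were smaller at 7 days after a call at 2 days. Both effects share the control samples. That test called 33 of the 37 tested members, against 79.1% of all genes, so passing it does not set these 8 apart. At 2 days only Slc4a11 and Slc9a3 of the 8 were called. The sign of the 2-day effect is not settled in the others. It was -0.01 for Slc12a9, -0.06 for Slc26a11 and 0.07 for Slc24a5. For 6 members the level at 7 days was above that at 2 days. The log2 fold change of 7 days over 2 days was 5.0 for Slc26a6, 2.97 for Slc9a3, 0.94 for Slc26a11, 0.48 for Slc20a1, 0.46 for Slc12a9 and 0.41 for Slc4a8. With library size alone the changes of Slc20a1, Slc12a9 and Slc4a8 were 0.06, 0.05 and -0.01 and none was called (edgeR adjusted p = 0.396, 0.709 and 0.955). For Slc24a5 the main value was -1.95 and for Slc4a11 it was -1.81. Of these, Slc26a6 had 7.48 ± 0.743 CPM with Apc off, 6.37 ± 0.164 CPM at 2 days and 204 ± 24.2 CPM at 7 days. Groups of 3 samples were not searched for single samples that stand apart.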

How the results depend on the processing

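Over the 17 members with values per sample, 979 alternative values kept direction and side of the threshold, 13 passed it newly, 12 fell short of it and 1 reversed: Slc20a1 at 7 days, log2 -0.11 with library size alone. At 2 days the main count was 11 members, 9 higher and 2 lower. Requiring more than a doubling (glmTreat) left 5, of which 4 were higher and 1 lower, against 170 and 94 of all 12535 genes. Library size alone, upper-quartile factors and a mean of at least 5 CPM each left 1 lower, and leaving out 1 sample gave 1 to 3 lower. Of all genes, 1239 of 12535 were lower with library size alone, 1218 of 12535 with upper-quartile factors and 1053 of 9786 with at least 5 CPM. With the replicate block 5 were lower at 2 days, the added ones being Slc12a2, Slc20a1 and Slc4a1ap (edgeR adjusted p = 0.0223, 0.0337 and 0.0341), and no other count moved by over 1.5 times. With that block 1963 of all 12535 genes were lower at 2 days. The labels do not say that a replicate number marks a shared source. Correlations of same-numbered samples in different groups ran from -0.13 to 0.48, with 5 of 9 over 0.1, and those of unlike numbers ran from -0.437 to 0.169. A sample correlated best with its own number in 12 of 18 cases, so the numbers were not taken to pair the samples. At 7 days against Apc off glmTreat called 19 members, 2 of them lower, while of all 12535 genes 2354 were higher and 1816 lower. At 7 days against 2 days it called 21, 3 of them lower, while of all 12535 genes 1977 were higher and 1385 lower. With a mean of at least 5 CPM, which leaves 24 members to test, 17 were higher, against 3910 of 9786 genes. Without 1 sample, 9 to 11 of the 11 calls at 2 days and 31 or 32 of the 32 at 7 days were shared with the full fit. Leaving out 1 sample moved a called fold change by over 1.5 times in Slc26a3, Slc9a3, Slc8a3, Slc4a5 and Slc13a2. For Slc4a5 and Slc13a2 at 7 days against Apc off, it was the 1 control with a count (edgeR adjusted p = 7.53e-13 and 1.11e-07 without it); for Slc13a2 at 7 days against 2 days, the log2 fold change was 5.78 and without 2-day replicate 1 it was 6.58. Depth limits Slc9a3, Slc34a2, Slc4a3, Slc8a3 and Slc24a5, which rest on few counts. Where no cause is given, the cause was not tested.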
